A study of Mus musculus with 6 samples.

Results

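The Wnt and TGF-beta signalling pathways are named after their ligands, and the Notch pathway after its receptor. From these pathways 53 genes were followed in haematopoietic stem cells (HSCs) from the bone marrow of Chrm1-/- and wild type mice. The genes were chosen by name as a list of ligands, receptors, signal carriers, nuclear factors and direct targets. Of the 53, 52 had a value here, among 22180 genes in all; Gsk3a was not analysed here. The comparison has 3 arrays of Chrm1-/- HSCs and 3 arrays of WT HSCs, and all 6 samples carry the strain label C57Bl/6. Chrm1 encodes a muscarinic acetylcholine receptor, and the study deals with how this receptor in the brain prepares HSCs to leave the marrow through glucocorticoid hormones. All mice were at steady state, and cells were sorted as Lineage-negative, Sca1-positive, cKit-positive and Flt3-negative. How the Chrm1 allele was made, in which cells the gene is missing and how old the mice were is not stated. Nor is it stated that the replicates came from different animals, and each p-value therefore reflects the scatter among 6 samples, some of which could be technical.

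In the canonical Wnt pathway a ligand binds a Frizzled receptor together with Lrp5 or Lrp6, the destruction complex of Apc, Axin and Gsk3 stops marking beta-catenin for breakdown, and beta-catenin joins TCF/LEF factors on target genes. A Notch receptor is cut when it meets a Jagged or Delta-like ligand on a neighbouring cell, and its freed inner part joins Rbpj and a Mastermind protein to switch on genes such as Hes1. TGF-beta and BMP ligands pair type I and type II receptor kinases that phosphorylate Smad proteins. TGF-beta is known to hold HSCs in quiescence, while Wnt and Notch signals reach them from the marrow niche.

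The deposited values are log2 signals with 1 value for each transcript cluster (the probe group of a gene) and array, and array medians lay between 6.49 and 6.57. Mean correlations over all clusters, between 0.918 and 0.929, were higher with arrays of the opposite genotype for 5 of the 6 arrays. The Chrm1 cluster with the higher signal read 7.75 ± 0.35 on Chrm1-/- arrays and 7.52 ± 0.13 on WT arrays (SD, n = 3 each). Where its probes lie relative to the deleted part is unknown here, and this level therefore checks nothing about the labels. Of 13 HSC markers with a value 12 passed the signal filter, 6 with a higher and 6 with a lower mean in Chrm1-/-. Among them were Kit at 10.88 and 10.90, Meis1 at 11.24 and 11.15, Hlf at 9.68 and 9.66 and Procr at 8.20 and 8.45 in Chrm1-/- and WT HSCs. The Procr difference of -0.25 had an unadjusted p of 0.0393 and an adjusted p of 0.996 in limma. Of the markers of other cells, 7 of 12 endothelial, 3 of 10 stromal, 5 of 7 megakaryocyte, 4 of 4 erythroid, 4 of 9 granulocyte, 4 of 6 monocyte and macrophage, 1 of 6 T and NK cell and 2 of 6 B cell genes passed the signal filter. Of these only Cd68, a macrophage gene, had an unadjusted p under 0.05 in limma, as did 2.99% of all genes tested. Cd68 read 8.27 ± 0.17 on Chrm1-/- arrays and 9.35 ± 0.79 on WT arrays (SD, n = 3 each). Its difference of -1.07 did not pass once limma adjusted over all genes (adjusted p 0.996). The 4 monocyte and macrophage genes past the filter went in both directions, 2 higher and 2 lower in Chrm1-/-, with a median difference of 0.14. Ly86 differed by 0.51, Irf8 by 0.33 and Lyz2 by -0.05. The 4 granulocyte genes past the filter were all lower in Chrm1-/-, with a median difference of -0.25. The 4 erythroid, 3 stromal and 2 B cell genes past it were all higher, with medians of 0.17, 0.08 and 0.06. Genes entered the test when their mean signal over all 6 arrays reached 6.77, the median over genes. As a yardstick for signal without transcription, 1088 olfactory receptor genes had a median signal of 4.72 and a 95th percentile of 6.95. Signals of different genes come from different probes. Apart from the filter and this yardstick, they were not compared with each other.

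No member of the 3 pathways passed the adjusted test between Chrm1-/- and WT HSCs. Of the 52 members 39 entered the test, and 0 passed an adjusted p of 0.05 in limma, where 0 of all 11094 genes tested (0%) passed as well; the smallest adjusted p among members was 0.996. Of the 39 members tested, 35 had a mean signal above the 95th percentile of the olfactory receptor genes. The means of Fzd4, Dvl1, Hes1 and Ski lay below it. Lrp5 and Rbpj, 2 of the 39 members, had an unadjusted p under 0.05, which is 5.13% against 2.99% of all genes tested. The 3 Chrm1-/- values lay apart from the 3 WT values for 4 of 39 members (10.3%), against 5.79% of all genes tested. All 4, Lrp5, Tgfb1, Acvr1 and Smad3, were higher in Chrm1-/-, where 2.81% of all genes tested were apart in that direction. A difference of at least 1.5-fold was seen for 1 member (2.56%), Rbpj, against 4.31% of all genes tested. Members with a higher mean in Chrm1-/- numbered 24 and those with a lower mean 15, and the median log2 difference was 0.06, against 0.00 for all genes tested.

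**Figure D1:**
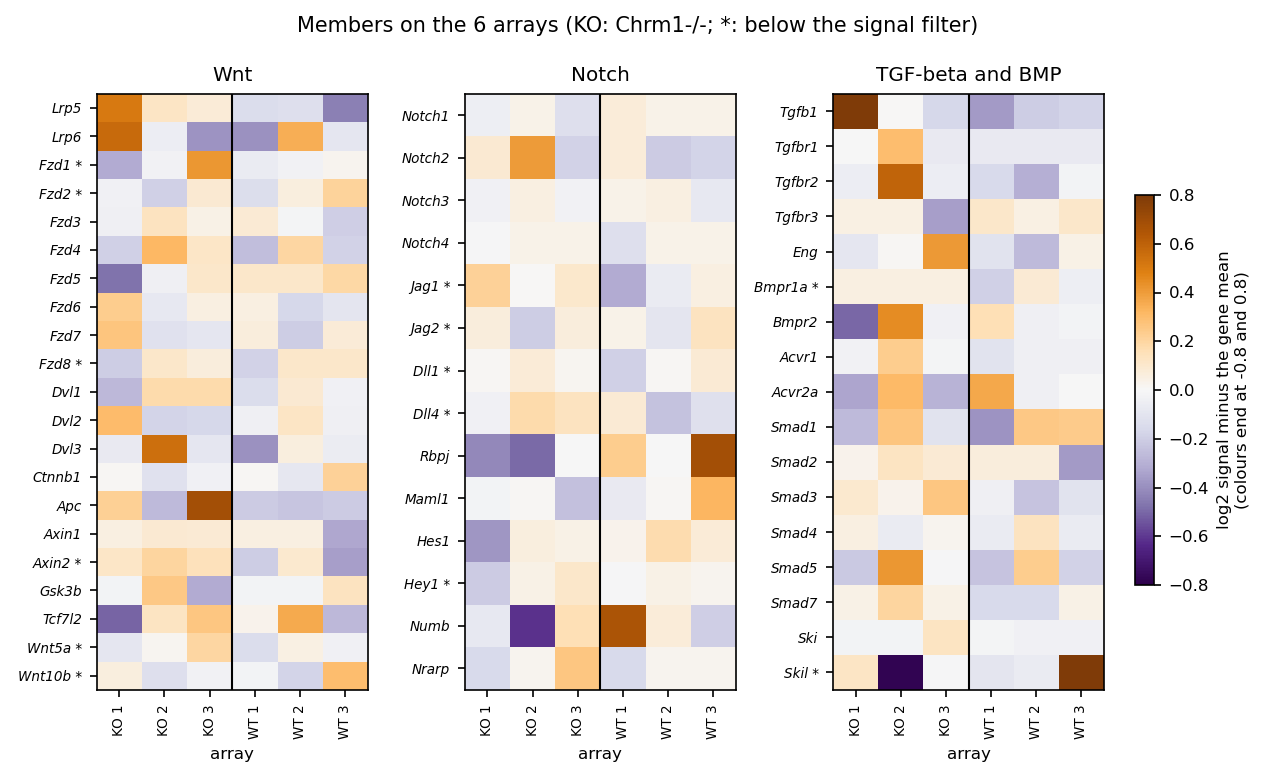
Log2 signal of the 52 members on each array, less the gene's mean over all 6 arrays, in a panel for each pathway. Rows are genes in the order of the list, columns are the 3 Chrm1-/- arrays (KO) left of the line and the 3 WT arrays right of it, and an asterisk marks the 13 members below the signal filter. Some of the strongest colours belong to a single array, such as Tgfb1 on Chrm1-/- replicate 1, while Lrp5 and Smad3 are higher on all 3 Chrm1-/- arrays.

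How far these arrays bound a change can be read from the intervals. The 95% interval of the difference lay within 1.5-fold in either direction (0.58 on the log2 scale) for 22 of the 39 members tested, and within 2-fold for 35. The 4 whose intervals reached past 2-fold were Apc, Numb, Rbpj and Tgfb1. The median standard error was 0.16 on the log2 scale, against 0.17 over all genes tested.

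**Figure D2:**
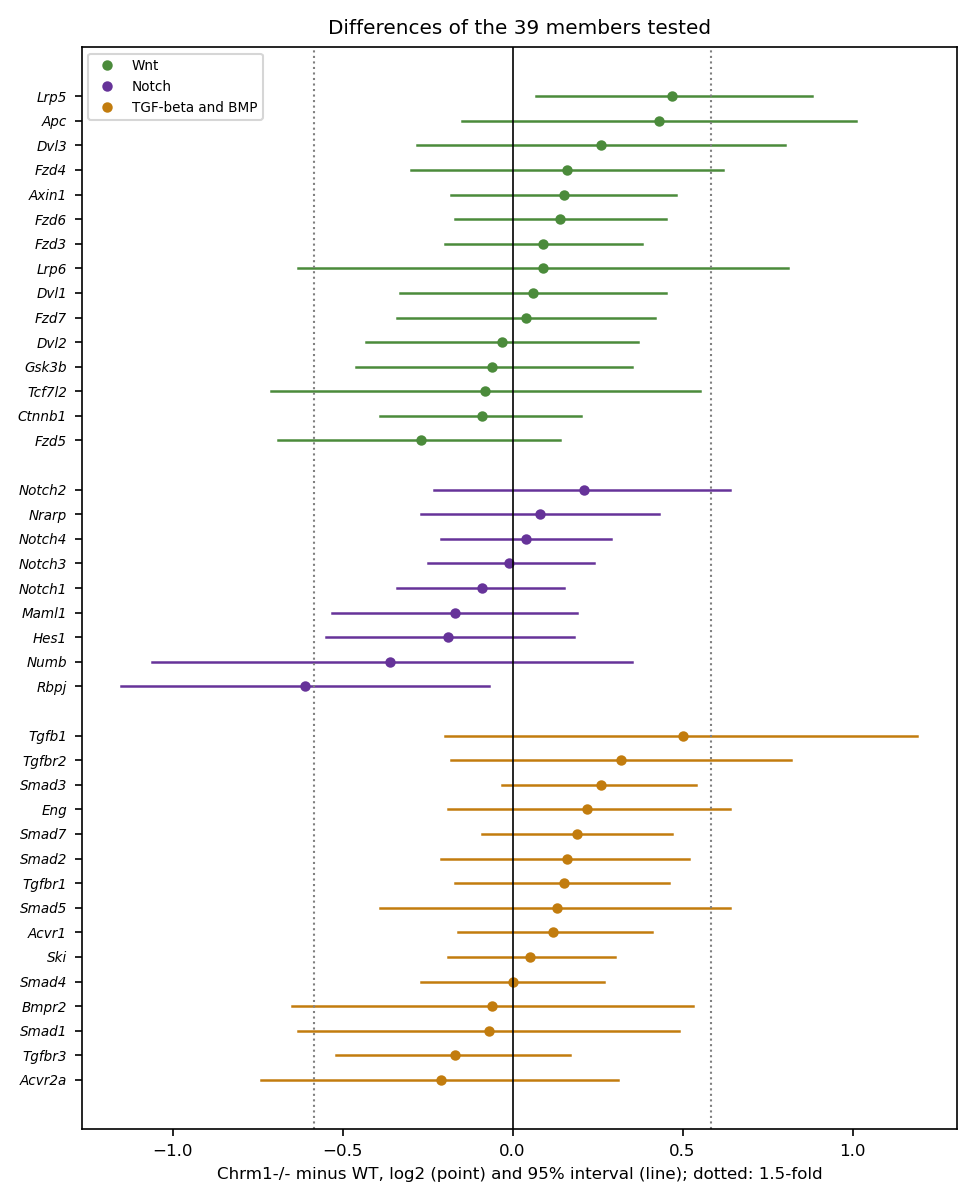
Chrm1-/- minus WT log2 difference (points) with 95% intervals from limma (lines) for the 39 members tested, grouped by pathway and sorted by size. Dotted lines mark 1.5-fold. The intervals of Lrp5 and Rbpj leave out 0, and those of the other 37 include it.

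Among Wnt pathway members, 10 of the 15 tested had a higher and 5 a lower mean in Chrm1-/- HSCs, with a median log2 difference of 0.09. The ligand genes Wnt5a, best known for signalling outside the beta-catenin route, and Wnt10b, a ligand of that route, both lay below the signal filter. Wnt5a read 5.58, 5.69 and 5.87 on Chrm1-/- arrays and 5.53, 5.72 and 5.64 on WT arrays. Wnt10b averaged 6.29 in Chrm1-/- and 6.35 in WT. For each ligand the groups overlapped, and all means lay below the 95th percentile of the olfactory receptor genes.

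Lrp5, a co-receptor that binds Wnt ligands together with a Frizzled protein, read 8.71, 8.32 and 8.28 on Chrm1-/- arrays and 8.06, 8.07 and 7.76 on WT arrays. Every Chrm1-/- value lay above every WT value, with a gap of 0.21 between the groups. The log2 difference was 0.47 ± 0.17 (SE), with a 95% interval from 0.07 to 0.88, an unadjusted p of 0.0278 and an adjusted p of 0.996 in limma. Its paralogue Lrp6, which takes the same place in the receptor, read 10.33, 9.71 and 9.38 on Chrm1-/- arrays and 9.37, 10.11 and 9.67 on WT arrays. The Lrp6 values overlapped fully, with a difference of 0.09 (95% interval -0.63 to 0.81), and a further Lrp6 cluster differed by 0.28. The difference between the responses of Lrp5 and Lrp6 was not tested.

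Frizzled genes encode the receptors of Wnt ligands. Of 8 Frizzled members 5 entered the test, and Fzd1, Fzd2 and Fzd8 lay below the filter, with group means from 4.40 to 6.73. Fzd3, Fzd4, Fzd6 and Fzd7 had differences from 0.04 to 0.16. Fzd5 read 6.78, 7.22 and 7.37 on Chrm1-/- arrays and 7.37, 7.37 and 7.45 on WT arrays, a difference of -0.27 ± 0.17 (SE). Only Chrm1-/- replicate 1 stood clearly below the other Fzd5 values.

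In the cytoplasm, the Dishevelled genes Dvl1, Dvl2 and Dvl3, whose products relay the receptor signal, differed by 0.06, -0.03 and 0.26. Ctnnb1, which encodes beta-catenin, read 9.01, 8.89 and 8.97 on Chrm1-/- arrays and 9.01, 8.92 and 9.22 on WT arrays. Its interval, from -0.39 to 0.20, was among the narrower ones. The kinase gene Gsk3b differed by -0.06 and the scaffold gene Axin1 by 0.15. Apc, the tumour suppressor of the destruction complex, read 8.29, 7.80 and 8.75 on Chrm1-/- arrays and 7.86, 7.84 and 7.86 on WT arrays. The WT values of Apc were nearly alike while the Chrm1-/- values spread over almost 1 log2 unit, and 1 of them lay below all WT values. The Apc difference was 0.43 ± 0.24 (SE), with an unadjusted p of 0.123 and an adjusted p of 0.996 in limma. Without Chrm1-/- replicate 2, Apc was 1 of 2 members with an unadjusted p under 0.05, beside Lrp5. That was 5.13% of the members tested, against 3.48% of all genes tested.

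At the end of the pathway, Tcf7l2, a TCF/LEF factor, differed by -0.08 with overlapping groups. Axin2, a scaffold protein that is also a widely used target gene of beta-catenin, lay just below the signal filter and was not tested. It read 6.77, 6.86 and 6.80 on Chrm1-/- arrays and 6.45, 6.75 and 6.30 on WT arrays. The groups were apart by 0.02, the difference of the means was 0.31, and without the filter the unadjusted p was 0.0553 in limma. A further Axin2 cluster read 6.23, 6.56 and 6.52 on Chrm1-/- arrays and 6.33, 6.52 and 6.22 on WT arrays, with overlapping groups and a difference of 0.08. The means of both clusters lay below the 95th percentile of the olfactory receptor genes.

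**Figure D3:**
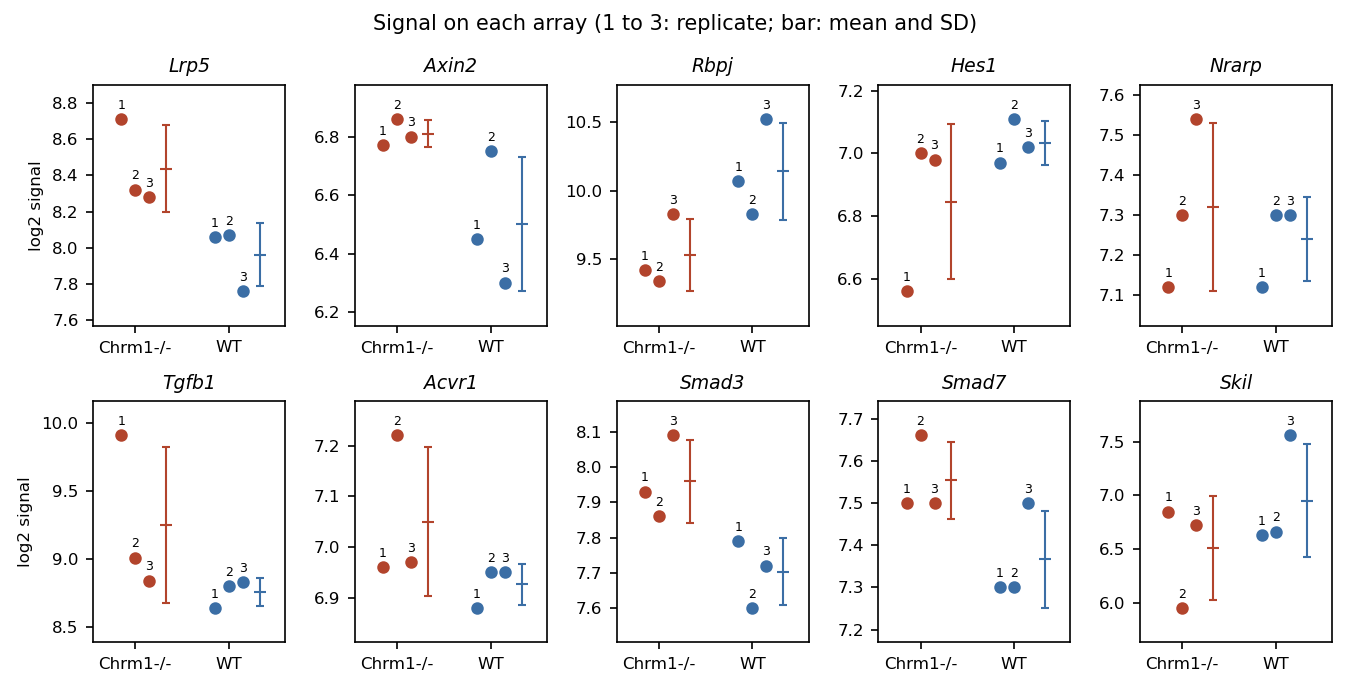
Log2 signal of 10 members on each array, with Chrm1-/- (red) left and WT (blue) right in each panel. Numbers give the replicate, bars the mean and SD of 3 arrays, and each panel has its own scale, which does not start at 0. Lrp5 and Smad3 are higher on all 3 Chrm1-/- arrays, the Tgfb1 and Acvr1 groups are apart by 0.01, and Rbpj has the value 9.83 in each group.

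Among Notch pathway members, 3 of the 9 tested had a higher and 6 a lower mean in Chrm1-/- HSCs, with a median log2 difference of -0.09. The ligand genes Jag1, Jag2, Dll1 and Dll4, which a neighbouring cell presents to the receptor, all lay below the signal filter. Their group means ran from 5.18 for Jag1 in WT to 6.75 for Dll4 in Chrm1-/-. Jag1 read 5.50, 5.29 and 5.39 on Chrm1-/- arrays and 4.97, 5.22 and 5.34 on WT arrays, and the groups overlapped. A further Dll1 cluster differed by -0.14, where the one used differed by 0.07.

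All 4 receptor genes passed the filter, and their differences ran from -0.09 to 0.21. Notch1, the receptor that drives T cell fate, read 7.76, 7.84 and 7.68 on Chrm1-/- arrays and 7.88, 7.84 and 7.84 on WT arrays, a difference of -0.09 with an interval from -0.34 to 0.15. Notch2, a receptor of HSCs and of marginal zone B cells, read 8.95, 9.26 and 8.67 on Chrm1-/- arrays and 8.93, 8.65 and 8.68 on WT arrays. Its difference was 0.21 (95% interval -0.23 to 0.64), and the groups overlapped. Notch3 differed by -0.01 and Notch4, known from endothelium, by 0.04, and for each of them a change of 1.5-fold lay outside the interval.

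Rbpj, the DNA-binding factor that every canonical Notch signal needs, read 9.42, 9.34 and 9.83 on Chrm1-/- arrays and 10.07, 9.83 and 10.52 on WT arrays. The groups touched at 9.83, with Chrm1-/- replicate 3 level with WT replicate 2. After median centring they were apart, as were those of 767 of all 11094 genes tested, and after quantile normalization they were not. The log2 difference was -0.61 ± 0.22 (SE), with a 95% interval from -1.15 to -0.07, an unadjusted p of 0.033 and an adjusted p of 0.996 in limma. A further Rbpj cluster did not share the difference. It read 7.23, 7.41 and 7.15 on Chrm1-/- arrays and 7.22, 7.19 and 7.20 on WT arrays, 0.06 higher in Chrm1-/-. With the mean of the gene's clusters the difference was -0.27, the unadjusted p 0.0771 in limma, and the groups were apart.

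Maml1, a Mastermind coactivator that binds the Rbpj complex, differed by -0.17 ± 0.15 (SE). Numb, which restrains Notch receptors and is dealt out unequally in some cell divisions, read 8.17, 7.63 and 8.41 on Chrm1-/- arrays and 8.91, 8.32 and 8.05 on WT arrays. Its difference of -0.36 had an interval from -1.06 to 0.35, and the groups overlapped.

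Target genes of Notch showed no difference past the test. Hes1, a repressor and the best known target, read 6.56, 7.00 and 6.98 on Chrm1-/- arrays and 6.97, 7.11 and 7.02 on WT arrays. Its difference was -0.19 ± 0.15 (SE), Chrm1-/- replicate 1 was the one low value, and without that array the difference was -0.04. The mean of Hes1 over all 6 arrays lay below the 95th percentile of the olfactory receptor genes. After quantile normalization the Hes1 groups were apart. Hey1, a related repressor below the filter, averaged 6.45 in Chrm1-/- and 6.49 in WT. Nrarp, a target that feeds back on the Notch complex, read 7.12, 7.30 and 7.54 on Chrm1-/- arrays and 7.12, 7.30 and 7.30 on WT arrays, a difference of 0.08 (95% interval -0.27 to 0.43). Hes5, a further target from the wider list of pathway genes, read 7.17, 7.18 and 7.14 on Chrm1-/- arrays and 7.12, 6.79 and 7.32 on WT arrays, and these groups overlapped too.

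The 250 bases before the start of Hes5, Nrarp and Axin2 are printed below to show the promoters behind these target signals. They come from RefSeq (GRCm38.p6), 5′ to 3′ along the gene's strand. Capitals in the Hes5 sequence mark the letters TGGGAA, or TTCCCA on the other strand, which Rbpj binds. Hes5 lies at chr4:154960673-154960922 on the plus strand, Nrarp at chr2:25180508-25180757 on the plus strand and Axin2 at chr11:108920099-108920348 on the plus strand.
Hes5: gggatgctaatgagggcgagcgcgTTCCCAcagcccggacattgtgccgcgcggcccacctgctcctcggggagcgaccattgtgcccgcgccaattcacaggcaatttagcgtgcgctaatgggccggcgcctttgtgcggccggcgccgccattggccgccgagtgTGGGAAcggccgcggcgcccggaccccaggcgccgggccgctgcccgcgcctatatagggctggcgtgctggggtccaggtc
Nrarp: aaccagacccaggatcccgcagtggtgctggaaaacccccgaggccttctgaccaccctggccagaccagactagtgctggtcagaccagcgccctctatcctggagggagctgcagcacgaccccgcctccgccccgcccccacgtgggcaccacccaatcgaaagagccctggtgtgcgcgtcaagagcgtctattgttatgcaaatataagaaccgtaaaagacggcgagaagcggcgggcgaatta
Axin2: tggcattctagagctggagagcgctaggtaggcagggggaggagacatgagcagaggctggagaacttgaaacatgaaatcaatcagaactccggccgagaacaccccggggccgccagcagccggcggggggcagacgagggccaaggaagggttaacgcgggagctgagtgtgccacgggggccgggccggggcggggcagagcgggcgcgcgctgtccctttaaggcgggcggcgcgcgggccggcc

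The Hes5 window held 2 matches, starting 226 and 82 bases before the gene's start, while the Nrarp window held 0. Of all 32851 promoter windows of the same length, 21.6% held TGGGAA on either strand, and 2.77% held it at least 2 times. The TCF/LEF letters TCAAAG had 0 matches in the Axin2 window and at least 1 in 13.8% of all windows. A match is a description of these letters, and an absent match says only that they are not in this window. Of the 4 Notch targets searched, Dtx1, Hes5, Hey2 and Nrarp, 2 held a match. Windows of Hes1 and Hey1 are not shown.

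Among TGF-beta and BMP pathway members, 11 of the 15 tested had a higher and 4 a lower mean in Chrm1-/- HSCs, with a median log2 difference of 0.13. None of these 15 had an unadjusted p under 0.05 in limma, and 0 passed the adjusted threshold. Tgfb1, the ligand gene, read 9.91, 9.01 and 8.84 on Chrm1-/- arrays and 8.64, 8.80 and 8.83 on WT arrays. The groups were apart by only 0.01, and Chrm1-/- replicate 1 stood far above the other 5 arrays. The difference was 0.50 ± 0.29 (SE), with an interval from -0.20 to 1.19 and an unadjusted p of 0.132 in limma, and it was 0.17 without Chrm1-/- replicate 1. Megakaryocytes are a known source of TGF-beta1 in marrow, and 7 megakaryocyte markers had mean signals of 7.22, 7.45 and 7.28 on Chrm1-/- arrays and 7.37, 7.39 and 7.44 on WT arrays. The spread of these means came largely from Pf4, which varied most among the 7 markers. Of these 7 markers 5 passed the filter, 3 with a higher and 2 with a lower mean in Chrm1-/- and a median difference of 0. The differences ran from -0.88 for Pf4 to 0.22. Pf4 read 8.20, 9.44 and 8.06 on Chrm1-/- arrays and 9.54, 9.46 and 9.33 on WT arrays. The part of these markers in the Tgfb1 signal was not tested. In a sorted population measured in bulk, fewer cells of a type and less RNA per cell cannot be told apart.

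The receptor genes showed differences in either direction. Tgfbr1, the type I receptor of TGF-beta, read 7.49, 7.79 and 7.42 on Chrm1-/- arrays and 7.42 on all 3 WT arrays. Tgfbr2, the type II receptor, read 7.40, 8.04 and 7.40 on Chrm1-/- arrays and 7.29, 7.15 and 7.43 on WT arrays, a difference of 0.32 ± 0.21 (SE) that came mostly from Chrm1-/- replicate 2. Tgfbr3 and Eng encode accessory receptors that present ligand. Tgfbr3 differed by -0.17 and Eng, also a marker of long-term HSCs and endothelium, by 0.22, with overlapping groups for each. Among 12 endothelial markers the mean signal was 7.22, 7.31 and 7.15 on Chrm1-/- arrays and 7.13, 7.12 and 7.26 on WT arrays, and their part in the Eng signal was not tested. Of that list 7 of 12 passed the signal filter, 5 with a higher and 2 with a lower mean in Chrm1-/-. Among the higher ones were Pecam1 at 9.90 in Chrm1-/- and 9.68 in WT and Emcn at 9.50 in Chrm1-/- and 9.29 in WT. The 2 lower ones were Cdh5 at 7.19 in Chrm1-/- and 7.34 in WT and Tie1 at 7.74 in Chrm1-/- and 7.85 in WT. Kdr, Flt1, Esam, Stab2 and Plvap lay below the filter.

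Of the BMP and activin receptors, Bmpr1a lay below the filter and read 5.97 on all 3 Chrm1-/- arrays, against 5.73, 6.00 and 5.87 on WT arrays. Bmpr2, a type II receptor of BMP ligands, read 10.25, 11.20 and 10.72 on Chrm1-/- arrays and 10.91, 10.71 and 10.73 on WT arrays, so its Chrm1-/- values lay on either side of WT. Acvr2a, a type II activin receptor, differed by -0.21 ± 0.22 (SE). Acvr1, a type I receptor, read 6.96, 7.22 and 6.97 on Chrm1-/- arrays and 6.88, 6.95 and 6.95 on WT arrays. Its groups were apart by 0.01, the smallest step that the 2-decimal values can show, and the difference of 0.12 had an interval from -0.16 to 0.41. Without Chrm1-/- replicate 2 it was 0.04. After a further quantile normalization or median centring the Acvr1 groups overlapped.

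The Smad genes encode the proteins that carry the signal to the nucleus. Smad3, which with Smad2 serves TGF-beta and activin, read 7.93, 7.86 and 8.09 on Chrm1-/- arrays and 7.79, 7.60 and 7.72 on WT arrays. All 3 Chrm1-/- values were the higher ones, with a gap of 0.07. The difference was 0.26 ± 0.12 (SE), with an interval from -0.03 to 0.54, an unadjusted p of 0.0682 and an adjusted p of 0.996 in limma. After median centring the groups overlapped, and without the filter on dim genes the unadjusted p was 0.0438. Smad2 read 10.06, 10.16 and 10.12 on Chrm1-/- arrays and 10.10, 10.10 and 9.67 on WT arrays, so that its difference of 0.16 came from WT replicate 3. Smad1 and Smad5, which serve BMP receptors, differed by -0.07 and 0.13, and the shared partner Smad4 by 0.00 with an interval from -0.27 to 0.27.

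Feedback and corepressor genes end the pathway. Smad7, an inhibitory Smad induced by TGF-beta, read 7.50, 7.66 and 7.50 on Chrm1-/- arrays and 7.30, 7.30 and 7.50 on WT arrays. The difference was 0.19 ± 0.12 (SE), with an unadjusted p of 0.155 in limma, and the groups met at 7.50. After median centring the Smad7 groups were apart. Ski, a corepressor that binds Smads, read 6.90, 6.90 and 7.05 on Chrm1-/- arrays and 6.91, 6.89 and 6.89 on WT arrays, a difference of 0.05. Skil, a related corepressor that is itself a TGF-beta target, lay below the filter and read 6.85, 5.95 and 6.72 on Chrm1-/- arrays and 6.63, 6.66 and 7.56 on WT arrays. Its difference of the means was -0.44, with the lowest value on Chrm1-/- replicate 2 and the highest on WT replicate 3.

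The wider pathways gave no call either. Of 191 other pathway genes listed, 181 had a value, 100 entered the test, 0 passed the adjusted threshold and 1 (1%) had an unadjusted p under 0.05 in limma, against 2.99% of all genes tested. That gene, Csnk1g3, encodes a casein kinase 1 that phosphorylates the Lrp co-receptors. It read 9.28, 9.47 and 9.46 on Chrm1-/- arrays and 10.15, 9.57 and 9.79 on WT arrays, a difference of -0.43 ± 0.17 (SE) with an unadjusted p of 0.0439. Groups were apart for 4 of the 100, against 5.79% of all genes tested, with Tgif1, a Smad corepressor, higher in Chrm1-/- and Csnk1g3, Maml3 and the Smad ubiquitin ligase Smurf2 lower. The median difference of the 100 genes was 0.02, with medians of 0.04 for Wnt, 0.02 for Notch and 0.01 for TGF-beta and BMP genes.

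By family, and with the members included, 5 of 19 Wnt ligand genes entered the test, with differences from -0.06 to 0.08. Of 11 genes of secreted Wnt antagonists 5 were tested, Dkk1, Dkk2, Dkk3, Wif1 and Notum, with differences from 0.01 to 0.28. Of 5 Notch ligand genes 0 passed the filter. All 3 Fringe genes, whose enzymes add sugar to Notch and shift its choice of ligand, passed it and differed by -0.01 to 0.13. Of 7 genes of the enzymes that cut Notch all were tested, with differences from -0.72 to 0.31. Aph1a, the gamma-secretase subunit gene at the low end, read 9.43, 7.88 and 7.82 on Chrm1-/- arrays and 8.72, 9.02 and 9.55 on WT arrays, with overlapping groups and an unadjusted p of 0.179 in limma. Acvr1b, a type I activin receptor gene, had the highest difference among receptors of its pathway, 0.80, and read 8.31, 7.67 and 9.01 on Chrm1-/- arrays and 6.71, 8.12 and 7.77 on WT arrays. These groups overlapped too, and the unadjusted p was 0.14. Aph1a and Acvr1b were singled out after their values were seen. Of 8 BMP ligand genes 2 were tested, and they differed by -0.03 and -0.01. Lef1, a TCF/LEF factor and Wnt target, differed by -0.06 and Id2, a BMP-responsive inhibitor of helix-loop-helix factors, by 0.01. Id1 and Id3, of the same family, lay below the filter, with differences of the means of 0.07 and -0.10. Tcf7 was not analysed here.

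Which members stood out changed with single arrays. Lrp5 kept an unadjusted p under 0.05 in 10 of 11 fits with all 6 arrays and in 4 of 6 fits that left out 1 array. Its difference was 0.34 (unadjusted p of 0.0678 in limma) without Chrm1-/- replicate 1 and 0.37 (unadjusted p of 0.0804) without WT replicate 3. Its groups stayed apart after quantile normalization and after median centring, while those of Tgfb1 overlapped after quantile normalization. Filters and means of clusters left the Lrp5 values as they were and could not change its separation. Rbpj kept an unadjusted p under 0.05 in 8 of 11 fits with all arrays and in 2 of 6 with 1 array left out, and its difference ran from -0.77 without WT replicate 2 to -0.42 without WT replicate 3. Tgfb1 ran from 0.17 to 0.70. Without Chrm1-/- replicate 1, and likewise without WT replicate 3, 0 members had an unadjusted p under 0.05, against 4.14% and 4.71% of all genes tested. Chrm1-/- replicate 1 was more than 0.3 above or below the next array for 5 of the 39 members (12.8%), against 7.91% of all genes tested. WT replicate 3 was so for 5 members as well, against 10.3% of all genes tested, and the other 4 arrays were so for 0 to 4 members.

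**Figure D4:**
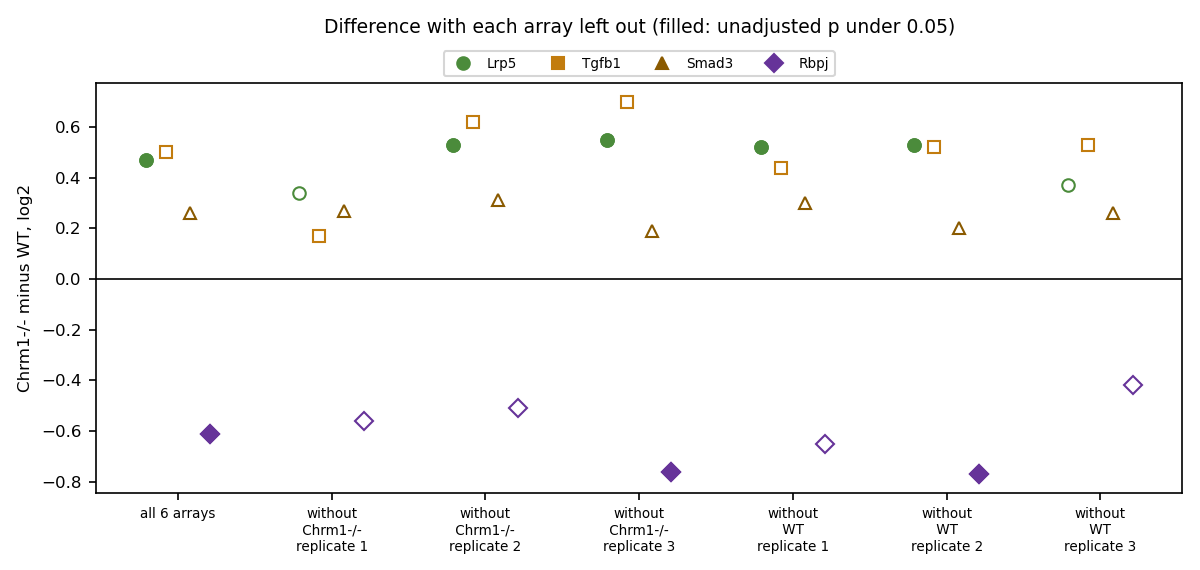
Chrm1-/- minus WT log2 difference of 4 members with all 6 arrays and with each array left out in turn. Filled symbols have an unadjusted p under 0.05 in limma. Lrp5, Tgfb1 and Smad3 stay above 0 and Rbpj below 0 throughout, while the size for Tgfb1 drops to 0.17 without Chrm1-/- replicate 1.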

How the data were processed

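Per the series design text, Affymetrix mouse gene 2.0 ST arrays were processed in the maker's analysis software; how it summarized and normalized them is not stated. The deposited table names no scale, and its values, 3.02 to 13.67, were read as log2 signals. Of 41345 clusters, 23521 had 1 symbol in the platform annotation, 1814 several and 16010 none; only the first were used, with the cluster of highest mean for the 1082 genes with more than 1. Genes at or above the median signal were compared as Chrm1-/- minus WT with limma 3.58.1 in R 4.3.3 (lmFit and eBayes, two-sided), adjusted by Benjamini-Hochberg over all 11094 genes; intervals are its moderated 95% intervals. The number of arrays limits the precision. The test was tested on simulated data. Members, lists and motifs were chosen with earlier results of these data known. Values on each array are given for members with an unadjusted p under 0.05, separated groups or at least 1.5-fold, for the target genes and for examples of each role. Alternatives covered filters (none, 75th percentile, olfactory receptor 95th percentile), quantile normalization, median centring, means of all clusters, the moderation (none, or trend and robust), a block for the replicate number, array weights, and leaving out each array. Same-numbered arrays did not deviate together: their correlations were -0.03, 0.01 and -0.01. Python 3.11.15 with pandas 2.3.3 and matplotlib 3.10.9 joined tables and drew plots.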

Additional observations from a re-analysis of the deposited data

How the results depend on the processing

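With 3 arrays a group, these data limit single genes to differences well above the median standard error. Over all genes, 1 passed the adjusted threshold without moderation, against 0; on leaving out each array the number ran from 0 to 1. Genes at an unadjusted p under 0.05 numbered 332, or 567 with no filter and 169 at the 75th percentile filter, and 335 to 522 on leaving out arrays. Genes with groups apart numbered 642, or 1196 with no filter and 353 at the 75th percentile filter, and 1457 to 1972 on leaving out arrays, where fewer samples make separation easier. Members past the adjusted threshold were 0 under every alternative listed in the processing account. Members at an unadjusted p under 0.05 numbered 2, or 1 each with the mean of all clusters (Lrp5), without moderation (Smad3) and with array weights (Lrp5), and 0 to 2 on leaving out arrays. Members with groups apart numbered 4, or 2 at the 75th percentile filter, which tests fewer genes, and 6 to 8 on leaving out arrays. The Notch median was -0.02 with no filter and -0.36 at the 75th percentile filter, which leaves fewer members, and -0.13 to -0.04 on leaving out arrays. The TGF-beta and BMP median ran from 0.04 to 0.18, lowest without Chrm1-/- replicate 2, and the Wnt median from 0.05 to 0.13. Other pathway genes at an unadjusted p under 0.05 numbered 1, or 4 with no filter and 0 with trend and robust moderation, and 0 to 4 on leaving out arrays. Nrarp changed sign to -0.03 without Chrm1-/- replicate 3. With the replicate block that count of other genes was 0, the count of members stayed at 2 and Rbpj had an unadjusted p of 0.00706 in limma; the numbers are not known to pair samples. Where values changed, the cause was not tested unless stated.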

Other observations

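Many members held the same 2-decimal value on several arrays. Of 52 members 12 (23.1%) had 1 value on at least 3 of the 6 arrays, against 12.2% of all 22180 genes, and among tested members the share was 25.6%, against 9.74% of all genes tested. Notch4 read 7.44 on 4 arrays and Tgfbr1 read 7.42 on 4 arrays, so that the SD of Tgfbr1 over the 3 WT arrays was 0.00. Smad7 read 7.50 on 3 arrays, Nrarp 7.30 on 3 and Bmpr1a 5.97 on 3. Such ties cross the genotypes for Notch4, Tgfbr1, Smad7 and Nrarp. How the deposited values came to be equal was not tested.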
